A study of Mus musculus with 63 samples.

Results

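The genes described here encode enzymes that conjugate or hydrolyse drugs, dietary chemicals and hormones in the intestinal epithelium. They were chosen by name among protein-coding genes, as Ugt, Gst, Mgst, Sult and Ces genes whose family prefix is followed by a number or, for Gst, by a class letter. Of 54752 genes in the count tables, 88 had such a name, and 60 of them reached at least 10 counts in at least 3 libraries of a table. These 60 members comprised 13 of 22 Ugt genes, 22 of 23 Gst genes, all 3 Mgst genes, 8 of 21 Sult genes and 14 of 19 Ces genes, and 49 of the 60 reached that level in all 4 tables. The member with the smallest highest count was Gsto2, with 13 reads in its highest library, and Sult2a1, with 11 reads in its highest library, stayed outside. Sult2a8 also stayed outside with 67 reads in its highest library, because fewer than 3 libraries of any table reached 10. Gstcd was admitted by its name only, as it is named for a glutathione S-transferase C-terminal domain.

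UDP-glucuronosyltransferases (Ugt) attach glucuronic acid to bilirubin, bile acids, steroids and phenols in the endoplasmic reticulum. Glutathione S-transferases (Gst, soluble, and Mgst, membrane-bound) attach glutathione to electrophiles, and sulfotransferases (Sult) transfer sulfate from an activated donor to phenols, amines and steroids. Carboxylesterases (Ces) hydrolyse ester and amide drugs as well as acylglycerols. In the small intestine these enzymes are known mostly from the absorptive enterocytes of the villus, where they limit the uptake of xenobiotics.

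RNA was sequenced from mouse small intestinal organoids and intestinal epithelial cells (IECs), all from the C57BL/6 strain, in a study of the Mediator kinases CDK8 and CDK19. The VillinCreERT2 transgene places a tamoxifen-inducible Cre under the epithelial Villin promoter, and active Cre deletes the floxed Cdk8 alleles. Organoids of 5 lines were collected 7 days after 100 nM 4-hydroxytamoxifen (4-OHT). The lines were VillinCreERT2 with no floxed or null kinase allele, C57BL/6 with no Cre, CDK8iIEC-KO (VillinCreERT2 with Cdk8 fl/fl), Cdk8 fl/fl on a Cdk19 ko/ko background with no Cre (Cdk8fl/fl/Cdk19-/-), and CDK8iIEC-KO/Cdk19-/-, which combined VillinCreERT2, Cdk8 fl/fl and Cdk19 ko/ko. IECs came from VillinCreERT2 and CDK8iIEC-KO/Cdk19-/- mice, collected 14 days after the last of 5 daily tamoxifen injections of 80 mg/kg, and the labels used here gave no age for these mice. A time course followed a CDK8iIEC-KO/Cdk19-/- line 3, 5, 7 and 10 days after EtOH (0.001%) or 4-OHT. Its sample descriptions give it another line number than the CDK8iIEC-KO/Cdk19-/- organoids of the 5-line set, and organoids under the time course number were also grown in Wnt3-conditioned medium (Wnt3-CM) with EtOH or 4-OHT for 10 days. A further line carried VillinCreERT2 and Cdk8 fl/fl with the kinase-dead allele Cdk19 D173A over a Cdk19 null allele and was collected 7 days after EtOH or 4-OHT. In the time course, in Wnt3-CM and in this last line, EtOH and 4-OHT organoids shared their Cdk19 alleles, so EtOH organoids of the first 2 settings already lacked Cdk19. Among the libraries used here, no line without a floxed allele had both EtOH and 4-OHT, so in them the response to 4-OHT and active Cre cannot be told apart from the loss of CDK8.

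Each of the 19 groups had 3 libraries, 57 in all, with total counts of 15485959 to 32909565 (median 19374952). Each IEC library has a number of its own in the sample descriptions, whereas the organoid libraries of a group repeat 1 line number. No source used here says whether organoid libraries came from separate cultures, so p-values there measure the spread between these libraries, which may be technical. The deleted kinases could not be checked from whole-gene counts: at day 7 of the time course Cdk8 had 47.7 to 50.2 CPM (a count as a rate per library size, with TMM-scaled sizes) with EtOH and 42.8 to 47.2 with 4-OHT, and Cdk19 stayed at 45.7 to 50.3 in Cdk19 ko/ko 4-OHT organoids. The column names of the D173A line lack its genotype, so its columns were assigned as the line left over, and its libraries, like those in Wnt3-CM, are numbered in column order. One library of that line stood apart: albumin (Alb), a liver gene, had 852 CPM in 4-OHT library 3 against 19.5 and 18.2 in the other 4-OHT libraries and 4.08 to 5.35 with EtOH. Library 1 of each treatment also differed from the others in some members. Ces1d had 36.5 CPM there against 71.3 and 69.3 with EtOH, and 55.5 against 98.9 and 94.7 with 4-OHT. In IECs, the summed level of 6 immune markers was 501 to 825 CPM in CDK8iIEC-KO/Cdk19-/- against 40.5 to 227 CPM in VillinCreERT2 libraries, and 6 mesenchyme markers summed to 453 to 963 against 12.8 to 881 CPM. All 12 enterocyte markers were detected in every group. In bulk RNA, fewer cells of a type and less RNA per cell cannot be told apart.

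Many members sit in gene clusters, which matters for counting. On GRCm38, 14 Ces members lay on chromosome 8 between 93056728 and 105058413, 7 Ugt2 members lay within 534 kb of chromosome 5 (86889767 to 87424203), and 6 Ugt1a members lay within 149 kb of chromosome 1 (88070800 to 88220002). The Ugt1a genes have separate first exons and common later exons: 82.7% of the exon bases of Ugt1a1 and 50.3% of those of Ugt1a6a belonged to another gene as well. How reads in common exons were counted is not given in the sources used here, so single Ugt1a values are uncertain, as are those of the near-identical Gstp and Gstm copies. Per kilobase of exon, averaged over all EtOH libraries of the time course, Gstm1 (479.9 CPM per kb), Gstm3 (430.3) and Ces2a (423) had the highest levels of the members. Ces2e (363 CPM per kb), Gsto1 (348) and Mgst3 (314) followed, while the most abundant Ugt was Ugt2b34 (153) and the most abundant Sult was Sult1b1 (57.7).

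Each of the 5 families held members that fell at day 3 and rose at day 10, and the promoter of 1 such member per family is shown, as the 250 bases upstream of the RefSeq start (GRCm38.p6, 5′ to 3′ on the strand of the gene). Capitals mark matches on either strand to the letters of 4 motifs: GTTAAT, the core of an HNF1 site, TTTATT or TTTATG for CDX, GCGTG for the xenobiotic response element, and TGACNNNGC for the antioxidant response element.
Ugt2a3, chr5:87337196-87337445, minus strand: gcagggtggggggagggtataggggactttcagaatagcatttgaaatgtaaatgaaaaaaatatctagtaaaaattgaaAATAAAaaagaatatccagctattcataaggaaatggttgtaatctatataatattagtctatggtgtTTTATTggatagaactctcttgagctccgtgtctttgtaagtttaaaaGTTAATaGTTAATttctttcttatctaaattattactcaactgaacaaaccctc
Gsta2, chr9:78347146-78347395, minus strand: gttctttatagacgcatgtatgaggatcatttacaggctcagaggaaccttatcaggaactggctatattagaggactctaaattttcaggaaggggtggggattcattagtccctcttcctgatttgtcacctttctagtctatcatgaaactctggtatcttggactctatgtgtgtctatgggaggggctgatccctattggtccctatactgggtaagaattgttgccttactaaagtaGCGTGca
Mgst1, chr6:138140277-138140526, plus strand: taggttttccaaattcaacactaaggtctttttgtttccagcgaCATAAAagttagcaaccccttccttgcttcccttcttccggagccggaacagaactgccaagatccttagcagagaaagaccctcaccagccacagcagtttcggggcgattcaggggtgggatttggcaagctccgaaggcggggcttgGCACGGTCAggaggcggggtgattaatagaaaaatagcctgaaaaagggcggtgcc
Sult1d1, chr5:87569007-87569256, minus strand: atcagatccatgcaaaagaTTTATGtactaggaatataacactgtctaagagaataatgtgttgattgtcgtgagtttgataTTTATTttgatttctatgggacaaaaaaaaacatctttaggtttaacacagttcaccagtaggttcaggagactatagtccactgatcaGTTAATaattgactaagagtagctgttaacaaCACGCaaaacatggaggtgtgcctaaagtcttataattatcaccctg
Ces2e, chr8:104926010-104926259, plus strand: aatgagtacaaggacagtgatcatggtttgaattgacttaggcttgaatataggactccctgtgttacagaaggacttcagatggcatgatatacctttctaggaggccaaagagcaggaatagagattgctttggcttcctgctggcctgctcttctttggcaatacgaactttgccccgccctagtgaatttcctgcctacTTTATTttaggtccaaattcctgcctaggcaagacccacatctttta

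The Ugt2a3 window holds 2 GTTAAT matches, at positions -54 and -47 counted from the start, and 2 CDX matches. Sult1d1 holds 1 match each to the HNF1 and xenobiotic response element letters and 2 CDX matches, and Ces2e holds 1 CDX match, at position -47, while Gsta2 holds GCGTG at position -7. Mgst1 holds TGACNNNGC at position -56 and 1 CDX match. Over windows of 300 bases (250 before and 50 after a start), 65 windows of 52 members were compared with all 32851 windows of the table. GTTAAT was present in 10.8% of member windows and 7.1% of all windows, the CDX letters in 29.2% and 27.6%, GCGTG in 23.1% and 32.4%, and TGACNNNGC in 6.15% and 12.4%. The HNF4 letters CAAAGTCCA were found in 1.54% of member windows, in Sult1b1 alone, and in 0.475% of all windows. By family, GTTAAT was found in 4 of 12 Ugt, 1 of 29 Gst, 0 of 4 Mgst, 2 of 9 Sult and 0 of 11 Ces windows, and the CDX letters in 4 of 12 Ugt, 5 of 29 Gst, 1 of 4 Mgst, 2 of 9 Sult and 7 of 11 Ces windows. A match of these letters is a description and not a measured binding site, and matches can overlap.

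The time course asked how the response develops after 4-OHT in organoids that lack Cdk19. The main finding was a change of direction. Most members called at day 3 were lower with 4-OHT, and those called at day 10 were higher. These were partly different members, as 16 were called lower at day 3 and higher at day 10. At day 3, 28 of 54 tested members fell and 1 rose (called at an edgeR adjusted p under 0.05 over all genes and a fold over 1.5), against 5.95% of all genes that fell and 6.42% that rose. At day 5, 6 rose and 8 fell, against 8.58% and 4.62% of all genes, and 3 to 7 rose and 7 to 10 fell when single libraries were left out. At day 7, 14 rose and 4 fell, against 9% and 9.25%, with 13 to 17 rises and 2 to 5 falls when single libraries were left out. At day 10, 29 rose and 0 fell, against 8.86% and 6.92%. For the direction with 0 calls at day 10, 2 members had an unadjusted edgeR p under 0.05 and DESeq2 called 0. The median log2 fold change over tested members went from -0.64 at day 3 through 0.03 and 0.36 to 0.65 at day 10, while that of all genes stayed between -0.02 and 0.02.

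**Figure D1:**
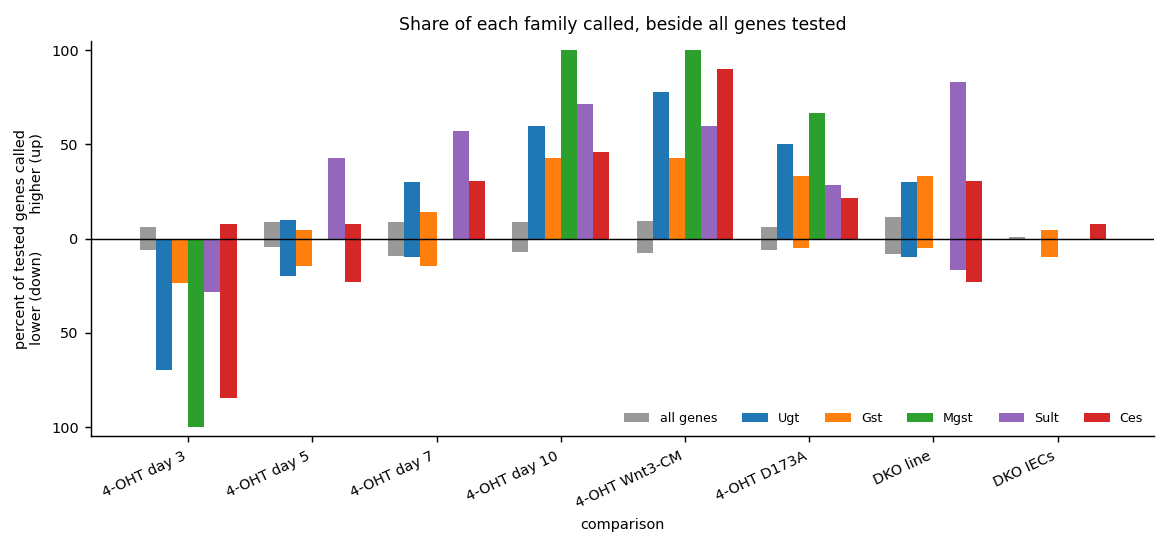
Percent of the tested genes of each family, and of all tested genes (grey), called higher (bars up) or lower (bars down) in the 6 comparisons of 4-OHT with EtOH and, for CDK8iIEC-KO/Cdk19-/- (labelled DKO) against VillinCreERT2, in organoid lines and IECs. At day 3 the bars of all 5 families point mainly down, above the 5.95% of all genes, and at day 10 and in Wnt3-CM they point up, above the 8.86% and 9.45% of all genes.

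This change of direction was tested directly, as the response at day 10 minus the response at day 3 in the same fit. The difference was positive and called in 40 of 54 members and negative in 3, against 13.9% and 12.4% of all genes, with a median of 1.44. By family, it was positive and called for 9 of 10 Ugt, 13 of 21 Gst, 3 of 3 Mgst, 5 of 7 Sult and 10 of 13 Ces members. Gstcd, Gstm5 and Ces1c had a negative difference, of -0.70, -0.63 and -0.86 on the log2 scale. The Ces1c call was lost, with -0.78 to -0.73, without each of 4 libraries in turn, and that of Gstm6 without EtOH day 10 replicate 1 (0.51). In all, 16 members both fell at day 3 and rose at day 10, which is 57.14% of those that fell and 55.17% of those that rose. Over all genes, 271 did so, 29.49% of those that fell at day 3 and 19.81% of those that rose at day 10.

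**Figure D2:**
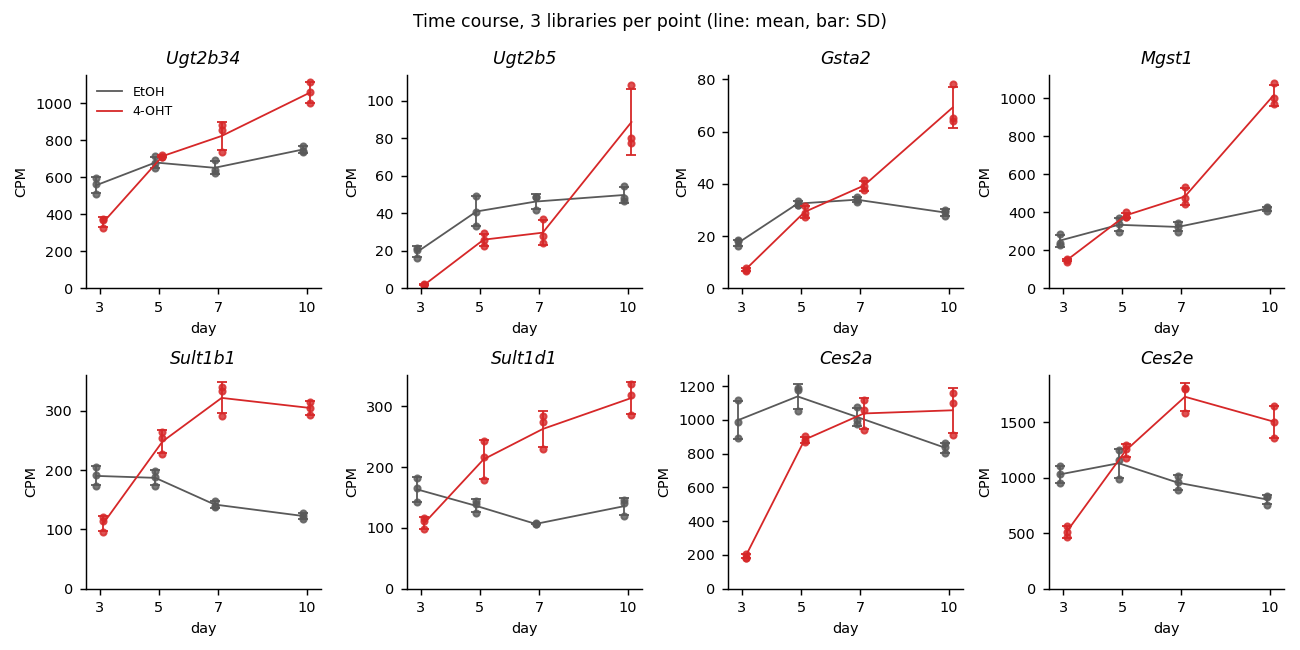
CPM (linear axis from 0) of Ugt2b34, Ugt2b5, Gsta2, Mgst1, Sult1b1, Sult1d1, Ces2a and Ces2e by day after EtOH or 4-OHT, with 1 point per library, lines through the group means and bars for the SD of 3 libraries. In each panel the 4-OHT points lie below the EtOH points at day 3 and above them at day 10.

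Markers of enterocytes moved in the same directions. At day 3, 8 of 12 enterocyte markers fell and their summed level was 7155 to 7758 CPM with EtOH against 3452 to 4040.3 with 4-OHT. At day 10, 6 rose and 1 fell, with sums of 7981 to 9321 against 10472 to 12156 CPM. Single markers did not all reverse: Fabp2, a fatty acid binding protein, had log2 fold changes of -0.87 at day 3 and 1.44 at day 10, and the glucose transporter Slc2a2 had -2.54 and -1.43. Of 8 Paneth markers, 0 were called at day 3 and 8 fell at days 5, 7 and 10. Stem marker sums turned the other way, with 1737 to 1752 CPM under EtOH and 2072 to 2108 under 4-OHT at day 3. At day 10 they were 2976 to 3210 against 1539 to 1755 CPM. Proliferation marker sums likewise were 540 to 601 against 648 to 693 CPM at day 3 and 756 to 838 against 452 to 476 CPM at day 10. The part of these cell type markers in the member values was not tested.

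Among Ugt genes, 7 of 10 fell at day 3 with a family median of -1.11, and 6 of 10 rose at day 10 with a median of 0.69. Ugt2b5, of the steroid and bile acid conjugating Ugt2b group, was chosen after its values were seen. It had 20.6, 16.04 and 21.6 CPM in the day 3 EtOH libraries and 1.61, 1.67 and 2.29 CPM with 4-OHT. All 3 EtOH libraries were higher, and Ugt2b5 fell by 3.38 ± 0.26 (SE) on the log2 scale (edgeR adjusted p = 4.00e-09). By day 10 it had 54.7, 46.6 and 47.99 CPM with EtOH and 109, 80.02 and 77.3 CPM with 4-OHT. The order was thus turned with no overlap, and Ugt2b5 rose by 0.83 ± 0.16 (SE) on the log2 scale (edgeR adjusted p = 2.87e-04). The difference of both responses was 4.21 ± 0.31 (SE).

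Ugt2a3, also chosen after its values were seen and known to act on bile acids, followed the same course with its promoter shown above. It had 35.3, 29.5 and 33.5 CPM with EtOH and 7.91, 8.25 and 9.99 CPM with 4-OHT at day 3, and 34.9, 34.9 and 35.6 against 92.3, 93.9 and 92.2 CPM at day 10. The groups did not overlap at either day, and Ugt2a3 fell by 1.91 ± 0.09 (SE) on the log2 scale (edgeR adjusted p = 4.98e-16) at day 3 and rose by 1.40 ± 0.08 (SE) on the log2 scale (edgeR adjusted p = 1.06e-14) at day 10. Ugt2b36 had 36.1, 28.3 and 34.5 CPM with EtOH and 8.200, 8.87 and 9.46 CPM with 4-OHT at day 3. Every 4-OHT library was lower, and Ugt2b36 fell by 1.90 ± 0.20 (SE) on the log2 scale (edgeR adjusted p = 3.59e-07), and its day 10 call (0.65) was lost without 4-OHT replicate 1 (0.55). Ugt1a1, the bilirubin conjugating enzyme, had 64.1, 48.4 and 56.8 CPM with EtOH and 16.6, 18.03 and 21.2 CPM with 4-OHT at day 3. It fell by 1.6 ± 0.11 (SE) on the log2 scale (edgeR adjusted p = 2.02e-11), and its value of 0.40 at day 10 did not pass the fold.

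Ugt2b34 and Ugt1a7c had day 3 log2 fold changes (-0.64 and -0.43) nearer 0 than the family median. Ugt2b34 had 594, 512 and 566 CPM with EtOH and 327, 373 and 372 CPM with 4-OHT at day 3, and 771, 739 and 744 against 1116, 1062 and 1002 CPM at day 10. It fell by 0.64 ± 0.07 (SE) on the log2 scale (edgeR adjusted p = 2.68e-08), a call lost without 4-OHT replicate 1 (-0.58), and had 0.50 at day 10. Its groups nevertheless did not overlap at day 3. Ugt1a7c rose in 4 of the 6 comparisons of 4-OHT with EtOH, at days 7 and 10, in Wnt3-CM and in the D173A line. At day 10 it had 236, 221 and 229.9 CPM with EtOH and 416, 377 and 345 CPM with 4-OHT, with no overlap, and it rose by 0.73 ± 0.07 (SE) on the log2 scale (edgeR adjusted p = 3.67e-09). Ugt1a6a, a phenol conjugating member, had 6.71, 5.31 and 5.25 CPM with EtOH and 15.4, 11.6 and 10.9 CPM with 4-OHT at day 5. All 4-OHT libraries were higher and it rose by 1.14 ± 0.21 (SE) on the log2 scale (edgeR adjusted p = 1.45e-04), against -0.71 at day 3 and 0.83 at day 10. Those 2 calls were lost when 1 library was left out, with -0.55 without day 3 4-OHT replicate 1 and 0.64 without day 10 EtOH replicate 2. Ugt1a9 fell at days 3 (-1.50) and 5 (-1.10), and its day 7 value of 0.60 fell under the thresholds without each of 3 libraries in turn (0.42 to 0.57). Ugt2b1 was at or under 3 counts in every EtOH library of day 7 and was at least 3.29-fold higher with 4-OHT there.

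Of the Gst genes at day 3, 5 of 21 members fell (median -0.13), namely Gsta1, Gsta2, Gsta4, Gstm1 and Gstm3, and at day 10, 9 rose (median 0.51). Gsta2, an alpha class transferase, had 18.4, 16.1 and 17.9 CPM with EtOH and 6.93, 7.78 and 6.79 CPM with 4-OHT at day 3. The EtOH libraries were all higher, and Gsta2 fell by 1.28 ± 0.10 (SE) on the log2 scale (edgeR adjusted p = 2.02e-11). At day 10 the values were 27.6, 29.4 and 29.98 CPM with EtOH and 78.3, 65.4 and 63.97 CPM with 4-OHT. The order was turned without overlap, and Gsta2 rose by 1.26 ± 0.08 (SE) on the log2 scale (edgeR adjusted p = 2.62e-13). Its neighbour Gsta1 had -1.24 and 0.96, both called, whereas Gsta4, which acts on lipid peroxidation products such as 4-hydroxynonenal, fell at day 3 (-0.91) and had -0.04 at day 10.

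The mu class members Gstm1 and Gstm3 were lower with 4-OHT than with EtOH at days 3, 5 and 7, and their EtOH levels were highest at day 5. Gstm1, the member with the highest level per kilobase, had 1161, 1137 and 1059.7 CPM with EtOH and 499.9, 533 and 627 CPM with 4-OHT at day 5. The 4-OHT libraries were all lower and Gstm1 fell by 1.02 ± 0.12 (SE) on the log2 scale (edgeR adjusted p = 2.03e-06). It also fell at day 3 (-0.68, or -0.56 and no longer called without EtOH replicate 3) and at day 7 (-0.77), and had 0.58 at day 10. EtOH libraries of Gstm1 had 399, 336 and 452 CPM at day 3 and 308, 420 and 409 CPM at day 10. With 4-OHT, Gstm1 had 255, 247 and 238 CPM at day 3 and 678, 540 and 479 CPM at day 10. Gstm3 had 369, 297 and 398 CPM with EtOH and 155, 161 and 148 CPM with 4-OHT at day 3, with no overlap, and fell by 1.20 ± 0.17 (SE) on the log2 scale (edgeR adjusted p = 2.83e-05). It fell again at day 5 (-1.30), while its day 7 call (-0.66) was lost without 4-OHT replicate 1 or EtOH replicate 3 (-0.57 for both). Gstm4 had -0.66 at day 5 and 0.98 at day 10, both called, with 15.1, 24.9 and 25.7 CPM under EtOH and 42.4, 46.05 and 41.2 CPM under 4-OHT at day 10.

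Gstm7 was the Gst member called higher most often over the 6 comparisons of 4-OHT with EtOH, with rises at days 7 and 10, in Wnt3-CM and in the D173A line. At day 10 it had 16.1, 19.2 and 19.5 CPM with EtOH and 38.1, 38.4 and 34.3 CPM with 4-OHT. The groups did not overlap, and Gstm7 rose by 1.02 ± 0.09 (SE) on the log2 scale (edgeR adjusted p = 1.04e-10). Gsto1, the omega class member that reduces dehydroascorbate, had 983, 893 and 804 CPM with EtOH and 1668, 1583 and 1450.3 CPM with 4-OHT at day 10. All 4-OHT libraries were higher, and Gsto1 rose by 0.81 ± 0.07 (SE) on the log2 scale (edgeR adjusted p = 9.01e-11), after -0.53 at day 3, which did not pass the fold. Gstk1, the mitochondrial and peroxisomal kappa class member, was chosen after its values were seen and rose at day 10 only among the 4 days tested (1.23). Gstp1 and Gstp2, pi class copies on chromosome 19, were not called at any day, with 0.49 for Gstp2 at day 10. The day 10 calls of Gstm6 (0.60) and Gstt1 (0.59) lay at the fold threshold, and each was lost without each of 3 libraries in turn (0.45 to 0.58 and 0.55 to 0.57). Gstt2 at day 5 (0.59) was lost without each of 4 libraries (0.52 to 0.55), and Gstcd at day 7 (-0.66) without EtOH replicate 3 (-0.57).

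All 3 Mgst members fell at day 3 and rose at day 10. Mgst1, a membrane-bound transferase that also reduces lipid peroxides, had 287, 228 and 237 CPM with EtOH and 140.4, 151 and 149 CPM with 4-OHT at day 3. It was lower in all 4-OHT libraries and fell by 0.77 ± 0.08 (SE) on the log2 scale (edgeR adjusted p = 1.65e-08). At day 10 it had 407, 429 and 422 CPM with EtOH and 1002, 1078 and 969 CPM with 4-OHT, with the opposite order and no overlap, and it rose by 1.28 ± 0.08 (SE) on the log2 scale (edgeR adjusted p = 3.24e-13). Mgst2, which can conjugate leukotriene A4, had log2 fold changes of -1.14 and 0.83 at those days, both called. Mgst3 had 355, 309 and 325 CPM with EtOH and 209.8, 228 and 216 CPM with 4-OHT at day 3. Its fall of -0.60 was called with all libraries but not without 4-OHT replicate 1 (-0.57), 4-OHT replicate 3 (-0.58) or EtOH replicate 1 (-0.54). At day 10 Mgst3 had 331, 331 and 346 CPM against 795, 846 and 703 CPM and rose by 1.22 ± 0.08 (SE) on the log2 scale (edgeR adjusted p = 3.24e-13). At days 5 and 7 the 3 Mgst members had log2 fold changes between -0.28 and 0.58, with 0 calls by edgeR in either direction, although 2 of the 3 were positive at an unadjusted p under 0.05 on each day, Mgst2 was negative at that level at day 7 (-0.28), and DESeq2 called 1 higher at day 7.

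Sulfotransferase calls were lower at day 3 and higher at the later days. Of 7 tested members, 2 fell at day 3, 3 rose at day 5, 4 rose at day 7 and 5 rose at day 10, with family medians of -0.60, 0.45, 1.04 and 1.21. Sult1d1, known for the sulfation of catecholamines, had 107, 106 and 107 CPM with EtOH and 274, 285 and 229 CPM with 4-OHT at day 7. The 4-OHT libraries were all higher and Sult1d1 rose by 1.30 ± 0.11 (SE) on the log2 scale (edgeR adjusted p = 2.48e-09). It had -0.60 at day 3, 0.65 at day 5 and 1.21 at day 10. The day 3 and day 5 calls lay near the fold threshold, with -0.58 to -0.51 without each of 3 libraries at day 3 and 0.53 to 0.57 without each of 2 libraries at day 5. Sult1b1, known for the sulfation of thyroid hormones and phenols, had 206, 174 and 191 CPM with EtOH and 95.3, 121 and 113 CPM with 4-OHT at day 3. It fell by 0.79 ± 0.08 (SE) on the log2 scale (edgeR adjusted p = 5.10e-09), and with 117, 128 and 122 against 293, 315 and 306 CPM at day 10 it rose by 1.32 ± 0.08 (SE) on the log2 scale (edgeR adjusted p = 1.30e-13). The groups of Sult1b1 did not overlap at either day.

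Sult1c2 rose at days 5, 7 and 10 and in Wnt3-CM. At day 7 it had 39.03, 36.2 and 39.8 CPM with EtOH and 80.5, 79.7 and 76.3 CPM with 4-OHT, with no overlap, and it rose by 1.04 ± 0.08 (SE) on the log2 scale (edgeR adjusted p = 4.88e-11). Its values of 0.60 at day 5 and 0.61 at day 10 were near the threshold and were lost without each of 2 libraries in turn (0.48 to 0.53 and 0.56 for both). Sult6b2, chosen after its values were seen, had 17.97, 11.5 and 11.97 CPM with EtOH and 70.2, 56.8 and 51.5 CPM with 4-OHT at day 10. The groups were far apart and Sult6b2 rose by 2.10 ± 0.22 (SE) on the log2 scale (edgeR adjusted p = 1.87e-07). Sult2b1, a hydroxysteroid and cholesterol sulfotransferase, had 60.7, 42.8 and 45.2 CPM with EtOH and 102, 82.8 and 68.6 CPM with 4-OHT and rose by 0.77 ± 0.19 (SE) on the log2 scale (edgeR adjusted p = 0.00311). Its 4-OHT libraries lay above all EtOH libraries. Sult1a1, a phenol sulfotransferase, was at or under 3 counts in each day 7 EtOH library and at least 4.53-fold higher with 4-OHT. At day 5 it had a log2 fold change of 2.25, with EtOH levels of 0.054, 0.202 and 0.049 CPM. Without EtOH replicate 2 it was still called, but the fitted 3.15 is not exact at such low levels.

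Nearly the whole carboxylesterase family fell at day 3, with 11 of 13 members called and a median of -1.05. Ces2a, one of the Ces2 enzymes of the small intestine, had 1116, 894 and 988 CPM with EtOH and 184, 204 and 183 CPM with 4-OHT. Every EtOH library was several fold higher, and Ces2a fell by 2.39 ± 0.09 (SE) on the log2 scale (edgeR adjusted p = 3.14e-18). At day 10 it had 802, 839 and 862 CPM with EtOH and 1162, 1102 and 908 CPM with 4-OHT. The 4-OHT libraries were then above the EtOH libraries, but the log2 fold change of 0.34 did not pass the fold. Ces2e, another abundant Ces2 enzyme, had 1103, 950.3 and 1032 CPM with EtOH and 462, 564 and 507 CPM with 4-OHT at day 3. It fell by 1.01 ± 0.09 (SE) on the log2 scale (edgeR adjusted p = 2.89e-10). At day 10 it had 823, 756 and 831 CPM against 1647, 1505 and 1361 CPM, with the 4-OHT libraries higher, and it rose by 0.90 ± 0.09 (SE) on the log2 scale (edgeR adjusted p = 1.48e-09).

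Ces1d, known as a triacylglycerol hydrolase, fell at day 3 and rose at days 7 and 10. It had 119.9, 88.7 and 107 CPM with EtOH and 29.9, 35.3 and 30.9 CPM with 4-OHT at day 3, without overlap, and it fell by 1.71 ± 0.18 (SE) on the log2 scale (edgeR adjusted p = 7.31e-07). At day 10 it had 21.3, 35.2 and 36.02 CPM with EtOH and 59.4, 73.9 and 70.5 CPM with 4-OHT and rose by 1.14 ± 0.18 (SE) on the log2 scale (edgeR adjusted p = 5.65e-05). Both day 10 groups lay below the day 3 EtOH libraries. Ces1b was the member called higher most often, in 5 of 6 comparisons. It had 2.66, 3.24 and 3.80 CPM with EtOH and 16.9, 15.2 and 14.7 CPM with 4-OHT at day 10, with no overlap, and it rose by 2.27 ± 0.15 (SE) on the log2 scale (edgeR adjusted p = 8.01e-13). At day 3 it had 0.28, which was not called, and Ces1c rose at day 3 (0.71, lost without EtOH replicate 1 at 0.63 and an edgeR adjusted p of 0.0539). Ces2b had 5.69, 3.29 and 6.43 CPM with EtOH and 2.14, 1.89 and 1.00 CPM with 4-OHT at day 5 and fell by 1.61 ± 0.35 (SE) on the log2 scale (edgeR adjusted p = 0.00104), while Ces1g also fell at day 5 (-1.72). The groups of Ces2b did not overlap at day 5. At day 3, the call of Ces2b (-0.76) was lost without any of the 6 libraries (-0.87 to -0.65), that of Ces2h (-0.96) without each of 4 (-1.00 to -0.65) and that of Ces2f without each of 4. Ces2f was at or under 3 counts in each 4-OHT library at day 3, at least 2.60-fold lower than with EtOH. At day 10, Ces2h (1.02) was lost without each of 5 libraries (0.74 to 1.14) and Ces2g (0.65) without EtOH replicate 1 (0.54).

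**Figure D3:**
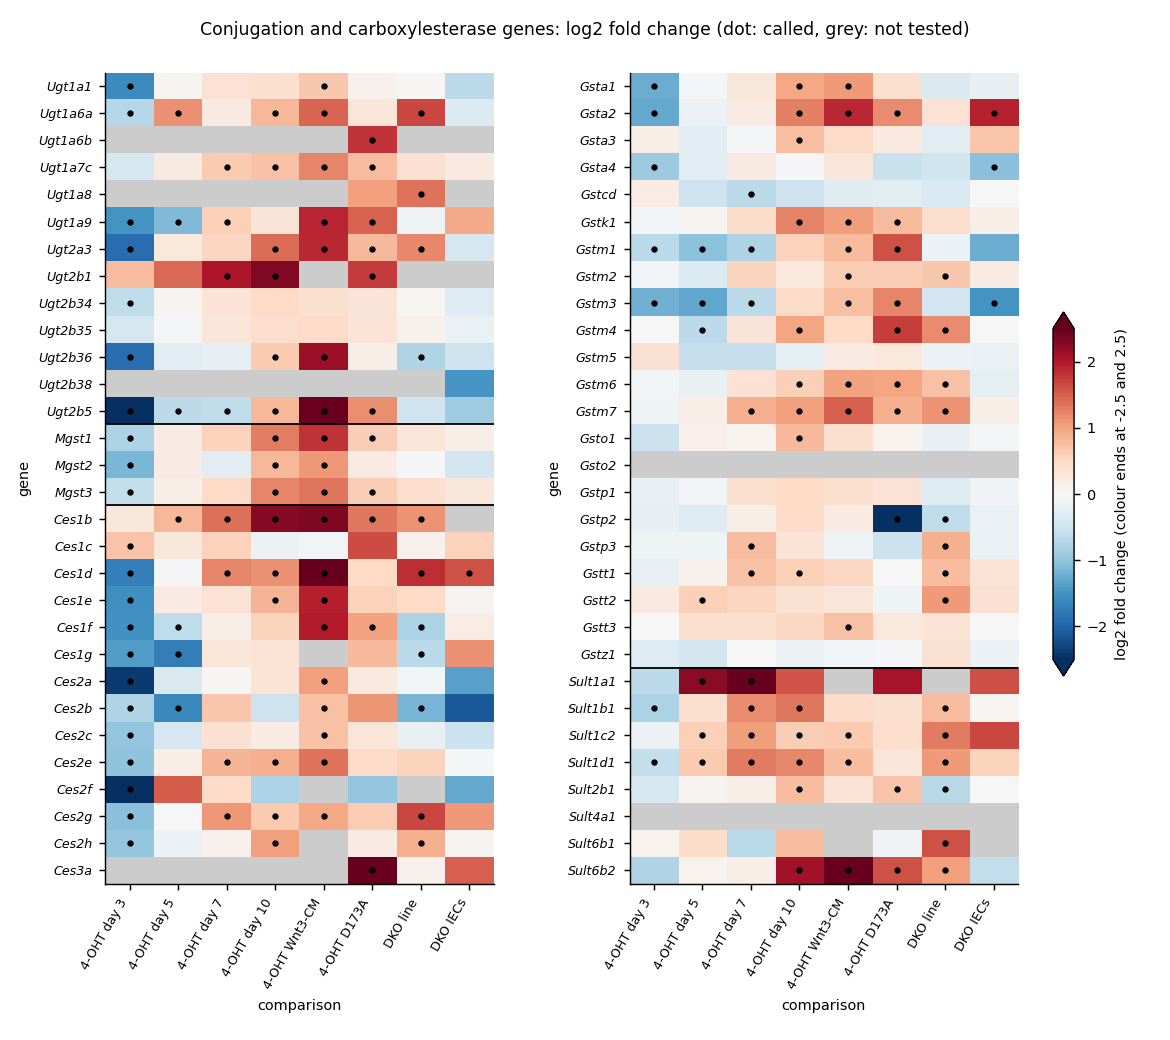
Log2 fold change of the members (rows, by family; grey where not tested) in the 6 comparisons of 4-OHT with EtOH and in CDK8iIEC-KO/Cdk19-/- (labelled DKO) against VillinCreERT2 organoids and IECs (columns), with a dot on called values. The day 3 column is mostly negative for Ugt, Mgst and Ces members (family medians -1.11, -0.77 and -1.05), and the day 10 and Wnt3-CM columns are mostly positive.

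The EtOH organoids themselves differed between days, which sets the level against which each response is read. Column names of day 3 and day 10 have different styles, so time in culture and any difference in processing cannot be told apart. From EtOH day 3 to EtOH day 10, 11 members rose and 17 fell, against 16% and 22.4% of all genes. Gsta1 (1.62), Ugt1a9 (1.80), Ugt2b5 (1.36) and Sult6b2 (2.13) rose. Ces1d (-1.77), Ces1g (-1.98), Ces2g (-1.89), Ugt1a6a (-1.81) and Gstp3 (-1.63) fell. Sult1a1 was at or under 3 counts in each EtOH library at day 10 and at least 5.71-fold lower than at day 3. The calls of Gsto1 (0.59), Ces1b (-0.66) and Sult6b1 (-1.33) were lost without 1 library, with 0.53 to 0.57 for Gsto1, -0.54 and -0.53 for Ces1b, and -0.77 for Sult6b1 without EtOH day 3 replicate 2.

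In Wnt3-CM, which supplies Wnt ligand from outside, 31 of 48 tested members rose with 4-OHT and 0 fell, against 9.45% and 7.42% of all genes. Falls had 1 member at an unadjusted edgeR p under 0.05, and DESeq2 called 0. The rises covered 7 of 9 Ugt members (median 1.45), 9 of 21 Gst members, 3 of 3 Mgst members (median 1.34), 3 of 5 Sult members and 9 of 10 Ces members (median 1.19). Ugt2b5 had 2.37, 1.47 and 1.79 CPM with EtOH and 13.7, 10.6 and 6.97 CPM with 4-OHT. All 4-OHT libraries were higher, and Ugt2b5 rose by 2.47 ± 0.27 (SE) on the log2 scale (edgeR adjusted p = 1.66e-05). Sult6b2 had 1.47, 0.525 and 1.05 CPM with EtOH and 18.4, 13.5 and 12.4 CPM with 4-OHT. It had the largest rise of the members here and rose by 3.85 ± 0.25 (SE) on the log2 scale (edgeR adjusted p = 1.66e-08). Ces1d had 2.68, 3.67 and 3.11 CPM with EtOH and 20.3, 24.8 and 22.7 CPM with 4-OHT, with no overlap, and it rose by 2.84 ± 0.13 (SE) on the log2 scale (edgeR adjusted p = 2.18e-13). Ces2a had 498, 476 and 485 CPM with EtOH and 1026, 1034 and 909.9 CPM with 4-OHT and rose by 1.03 ± 0.07 (SE) on the log2 scale (edgeR adjusted p = 1.13e-10). Mgst1 (1.81), Gsta2 (1.89), Gstm7 (1.49) and Ugt1a7c (1.23) rose as well, and the most abundant Ugt, Ugt2b34, had 0.40. The calls of Ces2b (0.72), Gstm2 (0.63) and Sult1c2 (0.65) were lost without 1 library, with 0.49 to 0.84, 0.54 to 0.58 and 0.44 to 0.57. Of the enterocyte markers, 7 of 12 rose and 1 fell (sums of 8066 to 9429.8 CPM with EtOH and 9599.9 to 10216 with 4-OHT), and 8 of 8 Paneth markers fell.

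The Wnt3-CM response was set against the day 10 response in standard medium in a joint fit of both count tables. It was higher in 10 of 50 members and lower in 1, against 7.11% and 6.21% of all genes. The higher members were Ugt1a9, Ugt2b5, Ugt2b36, Gsta2, Sult6b2, Ces1d, Ces1e, Ces1f, Ces2a and Ces2b. Ces1d differed by 1.70 ± 0.29 (SE) (edgeR adjusted p = 0.00101) and Ugt2b36 by 1.49 ± 0.17 (SE) (edgeR adjusted p = 3.64e-06). Sult1b1 was the lower member, with -0.87 ± 0.08 (SE). The calls of Ces2a, Ces2b, Gsta2 and Ugt1a9 were lost without 1 library (0.58, 0.97 to 1.23, 0.56 to 0.58, and 1.31 to 1.32). The media are in separate count tables, so only the differences of the responses were tested.

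In the D173A line, where the remaining Cdk19 allele encodes a kinase-dead protein, 20 of 57 tested members rose with 4-OHT and 1 fell, against 6.05% and 6.25% of all genes. Without 4-OHT library 3, the library with liver transcripts, 15 rose and 3 fell, of which 16 calls were shared. Ces1f, Gstm3, Gstm4, Mgst1 and Mgst3 were then no longer called, and Gsta4 (-0.59) and Gstp3 (-0.63) were called lower. With all libraries, 6 of 12 Ugt, 7 of 21 Gst, 2 of 3 Mgst, 2 of 7 Sult and 3 of 14 Ces members rose. Gstm1 had 744, 896 and 881 CPM with EtOH and 2462, 2490.1 and 2656 CPM with 4-OHT. All 3 4-OHT libraries were about equally high, and Gstm1 rose by 1.59 ± 0.08 (SE) on the log2 scale (edgeR adjusted p = 8.26e-07). Gstp2, a pi class member, moved the other way, with 38.6, 41.7 and 44.5 CPM with EtOH and 4.70, 8.74 and 8.39 CPM with 4-OHT. No library overlapped, and Gstp2 fell by 2.52 ± 0.21 (SE) on the log2 scale (edgeR adjusted p = 1.56e-04). Gsta2 had 55.2, 52.2 and 50.6 CPM with EtOH and 126, 112 and 121 CPM with 4-OHT and rose by 1.18 ± 0.07 (SE) on the log2 scale (edgeR adjusted p = 1.98e-06). Ugt2b5 (1.17), Sult6b2 (1.6), Ces1b (1.32) and Gstm7 (0.89) rose, while Ces2a (0.25) and Ces1d (0.49) were not called.

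Several D173A calls were lost when 1 library was left out, mostly with log2 fold changes close to those with all libraries. Gstm3 (1.22) and Gstm4 (1.72) had 642, 949.9 and 942 and 65.1, 114 and 108 CPM with 4-OHT against 249.9, 420.1 and 416 and 19.4, 34.5 and 32.9 CPM with EtOH, and each lost its call without each of 4 libraries in turn (1.13 to 1.32 and 1.58 to 1.85). Library 1 was the lowest under both treatments for both genes, and a fit that pairs libraries of the same number was not tested here. Ces1f was lost without any 4-OHT library (0.95 to 1.08), Mgst1 without 4-OHT library 3 or EtOH library 1 (0.54 and 0.55), and Mgst3 without each of 3 libraries (0.55 to 0.57). Ces3a (3.30) was 2.18 without 4-OHT library 3, and its call was lost without each of 4 other libraries (3.20 to 3.58). Ugt2b1 (1.74) was 1.13 without 4-OHT library 3 and was not called without EtOH library 2 (1.64). Of the enterocyte markers, 6 of 12 rose, with sums of 17462 to 17994 CPM with EtOH and 23466 to 27697 with 4-OHT.

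Set against the day 7 response of the Cdk19 ko/ko line in a joint fit, the D173A response was higher in 10 of 57 members and lower in 8, against 4.9% and 6.25% of all genes. Without 4-OHT library 3, the counts were 6 and 9, and 14 calls were shared. Gstm1 went in opposite directions in both lines (1.59 and -0.77) and differed by 2.36 ± 0.11 (SE) (edgeR adjusted p = 1.11e-09). Gstp2 differed by -2.67 ± 0.21 (SE) (edgeR adjusted p = 1.92e-06), and Ugt2b5, lower at day 7 in the Cdk19 ko/ko line (-0.64, -0.53 and not called without 4-OHT replicate 3), differed by 1.80 ± 0.17 (SE). Among the sulfotransferases, Sult1d1 (-1.01), Sult1b1 (-0.79) and Sult1c2 (-0.63, -0.56 and not called without EtOH library 1 of the D173A line) responded less. The calls of Ces1f, Gstm4, Gstm6, Gstt2 and Ugt1a9 were also lost without at least 1 library, with 0.73 to 0.93, 1.26 to 1.41, 0.57 to 0.58, -0.52 and 0.73 to 0.89. Lines, Cdk19 alleles and count tables differ together in this contrast and cannot be told apart.

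**Figure D4:**
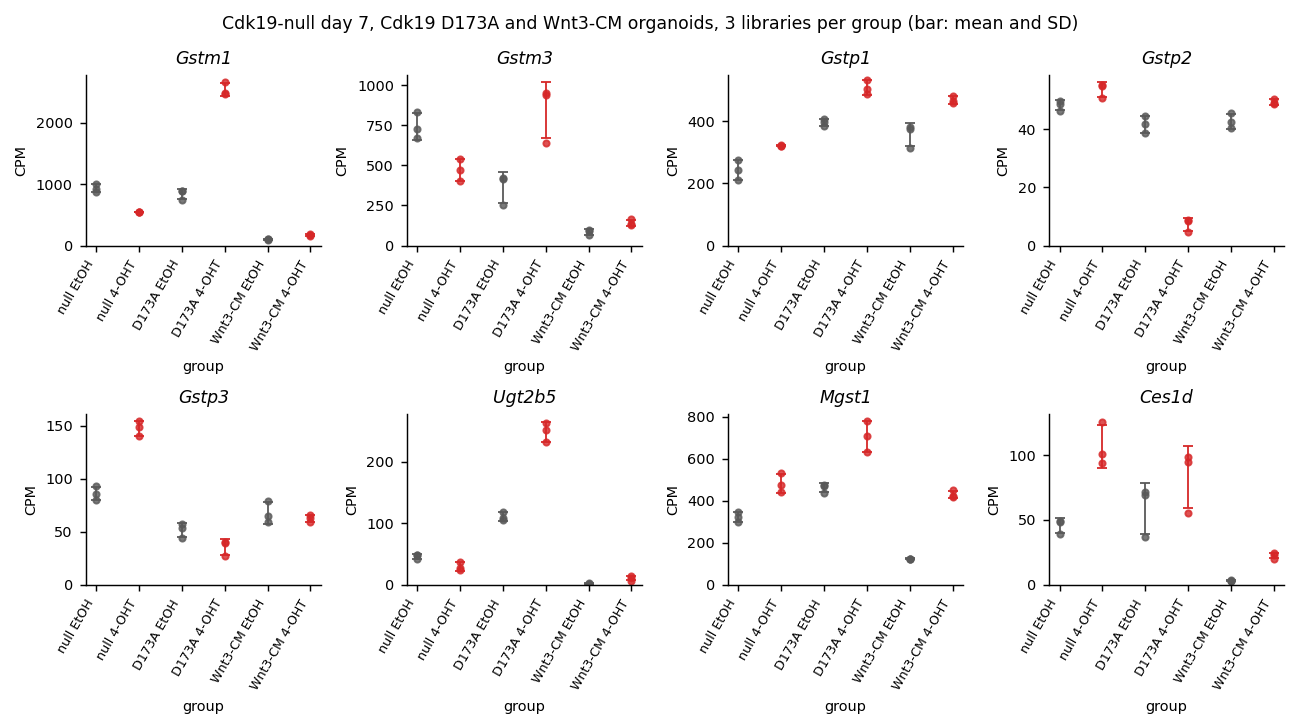
CPM (linear axis from 0) of Gstm1, Gstm3, Gstp1, Gstp2, Gstp3, Ugt2b5, Mgst1 and Ces1d in EtOH (grey) and 4-OHT (red) libraries of the Cdk19 ko/ko line at day 7 (labelled null), the D173A line and the Wnt3-CM organoids, with 1 point per library and the mean and SD of 3 libraries. With 4-OHT, Gstm1 is higher and Gstp2 lower in the D173A line (1.59 and -2.52 on the log2 scale), whereas Gstm1 is lower in the Cdk19 ko/ko line at day 7 (-0.77).

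The 5 organoid lines at day 7 asked what the loss of 1 or both kinases does. Every line here received 4-OHT, each group is 1 line, and comparisons with VillinCreERT2 share those control libraries. Between CDK8iIEC-KO and VillinCreERT2 organoids, 7 of 53 members were higher and 4 lower, against 2.9% and 4.34% of all genes. Between Cdk8fl/fl/Cdk19-/- and C57BL/6 organoids, 2 were higher, Gstp2 (1.27) and Sult6b2 (1.49), and 0 lower, against 2.86% and 2.39%. In the direction with 0 calls, 10 members had an unadjusted edgeR p under 0.05, and DESeq2 called 0. In CDK8iIEC-KO/Cdk19-/- organoids, 19 members were higher and 6 lower than in VillinCreERT2, against 11.5% and 7.95%, and 13 were higher and 7 lower than in CDK8iIEC-KO, against 11.7% and 8.65%. The control lines differed from each other as well: 11 members were higher and 7 lower in C57BL/6 than in VillinCreERT2 organoids, against 15.5% and 10.9%. Set against the average of VillinCreERT2 and C57BL/6 organoids, 12 members were higher and 2 lower in CDK8iIEC-KO/Cdk19-/- organoids, against 8.22% and 5.72% of all genes. The column names fall into 2 styles: CDK8iIEC-KO/Cdk19-/-, C57BL/6 and Cdk8fl/fl/Cdk19-/- (totals of 15485959 to 18440256 counts) have one and CDK8iIEC-KO and VillinCreERT2 (20424462 to 21449826) the other, and no source used here says what the styles stand for. Against C57BL/6, the control line of its own style, which has no Cre, 11 members were higher and 2 lower in CDK8iIEC-KO/Cdk19-/- organoids, against 8.66% and 9.41% of all genes, a comparison added after seeing the data. Of the 25 members called against VillinCreERT2, 7 were called in the same direction against C57BL/6, 9 had the same sign but were not called, 8 had the opposite sign and were not called, and Gstp2 was called in the opposite direction. The higher members against C57BL/6 included Sult6b2 (2.93), Gstm4 (1.21), Sult1c2 (1.12), Gsta2 (0.91) and Ugt1a7c (0.81), and Ces1g (-1.18) and Gsta4 (-0.67) were lower.

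In CDK8iIEC-KO/Cdk19-/- organoids, 5 of 6 tested sulfotransferases were higher than in VillinCreERT2 and 1 was lower, with a median of 1.05. Sult1c2 had 32.1, 28.3 and 29.5 CPM in VillinCreERT2, 28.04, 27.7 and 37.2 in CDK8iIEC-KO and 79.6, 67.7 and 74.6 in CDK8iIEC-KO/Cdk19-/- organoids. The last line was above both others, and Sult1c2 was higher than in VillinCreERT2 by 1.30 ± 0.10 (SE) on the log2 scale (edgeR adjusted p = 2.09e-10). Its C57BL/6 libraries had 34.6, 34.4 and 32.8 CPM. Against C57BL/6 organoids it was higher by 1.12. Sult1d1 (1.07) and Sult1b1 (0.78) were also higher than in VillinCreERT2 (0.68, called, and 0.29, not called, against C57BL/6), and for both the C57BL/6 against VillinCreERT2 values of 0.39 and 0.49 were not called. Sult2b1 was lower (-0.69), with 68.2, 90.5 and 68.7 CPM in VillinCreERT2 and 47.95, 51.2 and 41.97 CPM in CDK8iIEC-KO/Cdk19-/- organoids, and its call was lost without VillinCreERT2 replicate 2 (-0.54) and against C57BL/6 (0.15). Sult6b1 (1.58) was lost without each of 3 libraries (1.19 to 1.41) and was 2.22 without VillinCreERT2 replicate 1. Against C57BL/6, Sult6b1 had 0.44 and was not called, so 3 of the 5 sulfotransferases (Sult1c2, Sult1d1 and Sult6b2) were called higher against both control lines.

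Several other members differed from VillinCreERT2 in the CDK8iIEC-KO/Cdk19-/- and the C57BL/6 line alike. Ugt1a6a had 7.69, 6.57 and 6.65 CPM in VillinCreERT2, 18.2, 14.1 and 15.2 in C57BL/6 and 23.1, 20.8 and 22.8 in CDK8iIEC-KO/Cdk19-/- organoids. The VillinCreERT2 libraries were the lowest of these 3 lines, with log2 differences of 1.67 for CDK8iIEC-KO/Cdk19-/- and 1.18 for C57BL/6. Ces1d had 25.8, 23.8 and 26.04 CPM in VillinCreERT2, 88.5, 82.9 and 83.98 in C57BL/6 and 86.5, 96.9 and 89.2 in CDK8iIEC-KO/Cdk19-/- organoids. Again VillinCreERT2 was the lowest, with 1.85 and 1.75. Ugt2a3 (1.20 and 1.25), Ces1b (1.12 and 1.29) and Ces2g (1.68 and 1.70) were higher than in VillinCreERT2 in both, and Ugt2b36 (-0.74 and -0.81) and Gstp2 (-0.64 and -1.34) lower in both. Set against the mean of both control lines, the Gstp2 value turned to 0.03 (edgeR adjusted p = 0.84). Set directly against C57BL/6, the CDK8iIEC-KO/Cdk19-/- values of Ugt1a6a (0.49), Ces1d (0.09), Ugt2a3 (-0.04), Ces1b (-0.17), Ces2g (-0.02) and Ugt2b36 (0.06) were not called, and Gstp2 was higher (0.70). Mean CPM of Ugt1a6a was 16.7 in Cdk8fl/fl/Cdk19-/- and 8.36 in CDK8iIEC-KO organoids, and that of Ugt2a3 was 99.8 and 57.8. Libraries of Ugt1a6a, Ugt2a3, Ces1d and Ces2g did not overlap between the styles of column names, whereas those of Ces1b, Ugt2b36 and Gstp2 did. The part of the styles in these values was not tested. The 4 distal intestine markers summed to 224 to 525 CPM in VillinCreERT2, 149 to 178 in Cdk8fl/fl/Cdk19-/-, 83.8 to 98.7 in C57BL/6, 86.3 to 91.4 in CDK8iIEC-KO and 84.4 to 126 in CDK8iIEC-KO/Cdk19-/- organoids. VillinCreERT2 was thus the highest, and Cdk8fl/fl/Cdk19-/- lay between it and the other lines. The part of these differences in the member values was not tested. Gstm4 had 45.3, 46.1 and 57.2 CPM in VillinCreERT2, 44.6, 54.04 and 47.1 in C57BL/6, 94.4, 98.5 and 127 in CDK8iIEC-KO and 106, 131 and 101 in CDK8iIEC-KO/Cdk19-/- organoids. Both CDK8-deleted lines were higher than VillinCreERT2 (1.11 and 1.18), and C57BL/6 was not called (-0.03).

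Gstm3, by contrast, had 739, 709 and 789 CPM in VillinCreERT2, 1104, 1046 and 1231 in CDK8iIEC-KO and 501, 555 and 559.8 in CDK8iIEC-KO/Cdk19-/- organoids. It was lower in CDK8iIEC-KO/Cdk19-/- than in CDK8iIEC-KO by -1.07 ± 0.07 (SE), and its rise of 0.60 in CDK8iIEC-KO was lost without CDK8iIEC-KO replicate 3 (0.53) or VillinCreERT2 replicate 2 (0.56). Gstm1 likewise had 0.71 in CDK8iIEC-KO and -0.86 in CDK8iIEC-KO/Cdk19-/- against CDK8iIEC-KO, both called. Ces2b had 5.79, 6.33 and 5.30 CPM in VillinCreERT2 and 1.77, 4.06 and 1.99 CPM in CDK8iIEC-KO/Cdk19-/- organoids, with no overlap, and was lower by -1.16 on the log2 scale (-0.59 and not called against C57BL/6). The calls of Gstm2 (0.67) and Ugt1a8 (1.35) were lost without 1 library (0.57 without CDK8iIEC-KO/Cdk19-/- replicate 2 and 0.97 without VillinCreERT2 replicate 1), and Ugt1a8 was 2.09 without VillinCreERT2 replicate 3. Against C57BL/6, Gstm2 had -0.04 and was not called, and Ugt1a8 had 1.17 and was called. Against CDK8iIEC-KO, Ces2g (0.65) and Ces2h (0.96) were lost without 1 library (0.55 to 0.58 and 0.70), and between the control lines Ces1f, Ces3a and Gstm7 (-0.61, -1.10 and 0.66; -0.56 to -0.51, -1.12 to -0.96 and 0.55 to 0.57). The 3 Mgst members lay between -0.03 and 0.43 in CDK8iIEC-KO/Cdk19-/- against VillinCreERT2 organoids, with 0 called and 2 positive at an unadjusted edgeR p under 0.05, and DESeq2 called 0. Of the markers, 3 of 12 enterocyte and 2 of 4 proximal intestine genes were higher in this comparison, and 7 of 8 Paneth, 3 of 7 goblet, 4 of 5 enteroendocrine, 4 of 4 tuft, 4 of 5 stem and 4 of 4 distal intestine genes were lower.

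**Figure D5:**
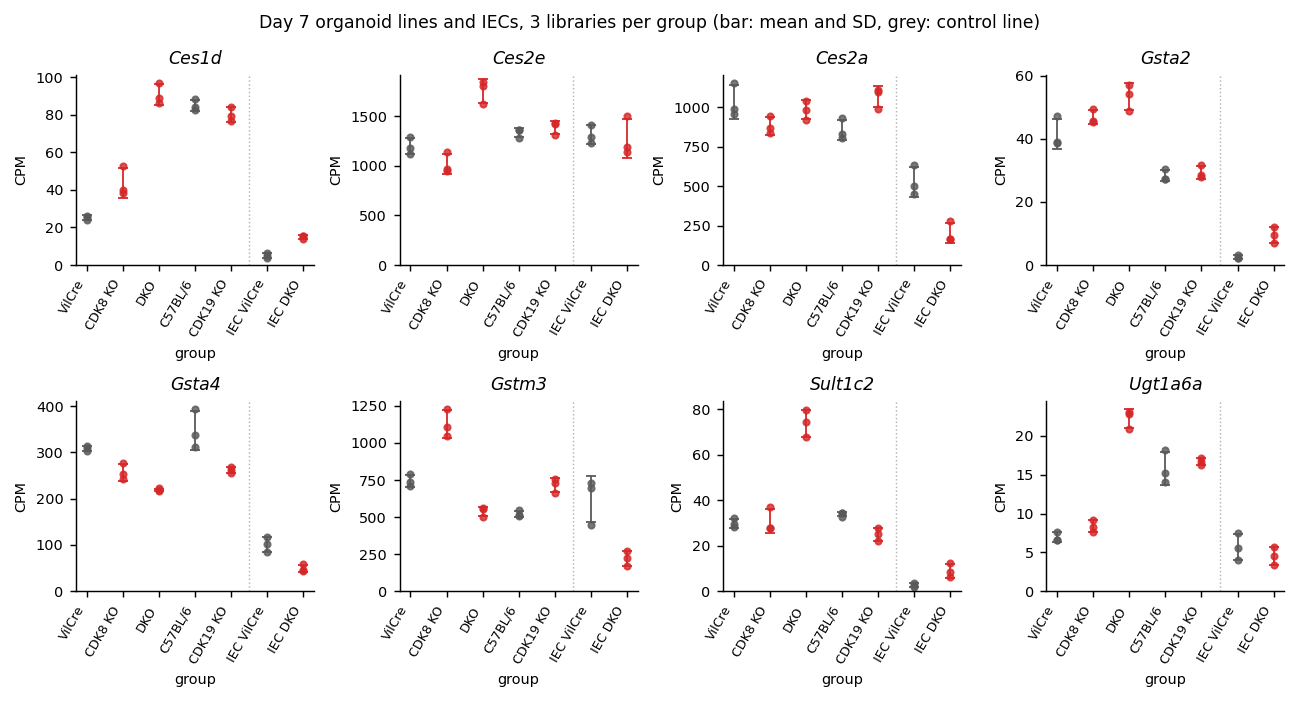
CPM (linear axis from 0) of Ces1d, Ces2e, Ces2a, Gsta2, Gsta4, Gstm3, Sult1c2 and Ugt1a6a in the 5 organoid lines at day 7 and in IECs, with 1 point per library and the mean and SD of 3 libraries (grey for control lines; VilCre is VillinCreERT2, DKO is CDK8iIEC-KO/Cdk19-/- and CDK19 KO is Cdk8fl/fl/Cdk19-/-). Sult1c2 is higher in CDK8iIEC-KO/Cdk19-/- than in VillinCreERT2 and CDK8iIEC-KO organoids (1.30 and 1.26 on the log2 scale), and the VillinCreERT2 organoids have the lowest mean of Ces1d among the organoid lines.

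In IECs, few members differed between CDK8iIEC-KO/Cdk19-/- and VillinCreERT2 mice. Of 53 tested members, 2 were higher and 2 lower, against 0.646% and 0.856% of all genes, and 24 of the 53 had an unadjusted edgeR p under 0.05. DESeq2 called 5 higher and 8 lower. Gsta2 had 3.24, 2.12 and 2.14 CPM in VillinCreERT2 and 9.62, 6.85 and 12.1 CPM in CDK8iIEC-KO/Cdk19-/- IECs. The groups did not overlap and it rose by 1.93 ± 0.28 (SE) on the log2 scale (edgeR adjusted p = 0.0361). Ces1d had 6.31, 4.62 and 3.96 CPM in VillinCreERT2 and 15.6, 13.6 and 15.7 CPM in CDK8iIEC-KO/Cdk19-/- IECs. It was also higher in all 3 CDK8iIEC-KO/Cdk19-/- libraries and rose by 1.59 ± 0.20 (SE) on the log2 scale (edgeR adjusted p = 0.0242). Gsta4 had 117, 103 and 84.6 CPM in VillinCreERT2 and 46.04, 43.2 and 58.6 CPM in CDK8iIEC-KO/Cdk19-/- IECs and fell by 1.04 ± 0.16 (SE) on the log2 scale (edgeR adjusted p = 0.0397). Gstm3 had 732, 695 and 445 CPM in VillinCreERT2 and 172, 224 and 269 CPM in CDK8iIEC-KO/Cdk19-/- IECs and fell by 1.49 ± 0.24 (SE) on the log2 scale (edgeR adjusted p = 0.0427). Neither Gsta4 nor Gstm3 overlapped between genotypes.

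Each of these 4 IEC calls was lost without at least 4 of the 6 libraries in turn: Ces1d with 1.46 to 1.80, Gsta2 with 1.71 to 2.16, Gsta4 with -1.19 to -0.93 and Gstm3 with -1.68 to -1.34, and 0 members were called by edgeR with the replicate number as a block (23 at an unadjusted p under 0.05). Other values were not called, such as Ces2b (-2.10) and Ces2a (-1.37). Ces2a had 633, 498 and 447 CPM in VillinCreERT2 and 166, 167 and 279 CPM in CDK8iIEC-KO/Cdk19-/- IECs. Sult1c2 had 1.76, 3.70 and 3.00 CPM and 12.4, 6.25 and 8.40 CPM (1.68, not called). Of 12 enterocyte markers, 0 were called by edgeR (5 at an unadjusted p under 0.05), 5 of 8 Paneth markers fell, and the immune sum given above was higher in every CDK8iIEC-KO/Cdk19-/- library, while the mesenchyme sums overlapped. The 5 pancreas markers summed to 12.3 to 50.5 against 3.96 to 8.53 CPM. The part of these other cells in the IEC values was not tested.

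Genes that supply or follow the conjugation step were read from 4 fixed lists. The 12 genes that make cosubstrates (UDP-glucuronate, activated sulfate and glutathione) gave 1 rise and 0 falls at day 3, 0 rises and 2 falls at each of days 5, 7 and 10, 4 rises and 1 fall in Wnt3-CM, and 3 rises and 0 falls in the D173A line. From EtOH day 3 to EtOH day 10, 6 of the 12 rose and 0 fell. The riser at day 3 was the cystine transporter Slc7a11 (2.13), which supplies cysteine for glutathione and fell at day 10 (-1.58), in Wnt3-CM (-1.47) and in CDK8iIEC-KO/Cdk19-/- against VillinCreERT2 organoids (-1.85). Ugdh, the enzyme that makes UDP-glucuronate, rose in Wnt3-CM (0.87) and in the D173A line (0.72). Gclc, the catalytic subunit of glutamate-cysteine ligase, fell at day 7 (-0.75) and was lower in CDK8iIEC-KO/Cdk19-/- organoids (-0.93).

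At days 3, 7 and 10, in Wnt3-CM and in the D173A line, other conjugating and hydrolysing enzymes were called in the same directions as most called members. Of 12 tested, 4 fell at day 3, 4 rose at day 7, 6 rose at day 10, 8 rose in Wnt3-CM and 6 rose in the D173A line, with 0 called in the opposite direction by edgeR in each. Of all genes, 5.95% fell at day 3, and 9%, 8.86%, 9.45% and 6.05% rose in the others, in that order. The arylacetamide deacetylase Aadac had -1.10 at day 3, 1.01 at day 10 and 2.32 in Wnt3-CM. The epoxide hydrolase Ephx2 had -1.16 at day 3, 1.15 at day 7 and 2.71 in Wnt3-CM, and the quinone reductase Nqo1 rose at day 10 (1.00) but was lower in CDK8iIEC-KO/Cdk19-/- than in VillinCreERT2 organoids (-0.83). Efflux transporters split: Abcg2 and Abcc6 fell at day 3 (-0.75 and -0.69) and rose at day 10 (0.85 and 1.23), whereas Abcc1 and Abcc4 rose at day 3 (0.79 and 0.65) and fell at day 10 (-0.93 and -0.81). Of 14 regulators, 4 fell and 1 rose at day 3. The nuclear receptors Nr1i3 (-1.66), Ppara (-1.36) and Rxra (-0.77) and the factor Hnf4g (-1.35) fell, and the pioneer factor Foxa1 rose (0.94). At day 10 Nr1i3 was the 1 regulator called (0.87), and in Wnt3-CM Nr1i3 (0.90) and Ppara (1.21) rose.

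Counting over the 6 comparisons of 4-OHT with EtOH, 45 of the 57 members tested in at least 1 of them rose at least once, 31 fell at least once, 25 did both and 6 did neither. Of the 16439 genes tested, 26.4% rose at least once, 24% fell at least once and 7.03% did both. The 5 members that rose in at least 4 of 6 were Ugt1a7c, Gstm7, Sult1c2, Sult1d1 and Ces1b, and 0 fell in at least 4, against 2.11% and 1.44% of all genes. Gsto2 and Sult4a1 were too low to be tested in any comparison, and Ugt2b38 was tested in IECs alone (-1.48, not called). Members at or under 3 counts in a whole group did not set the medians, which were the same with those members at their bounds.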

How the data were processed

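RNA-Seq libraries of mouse organoids and IECs were analysed from 4 tables. Per the labels, the libraries were poly-A selected and read as paired ends of 100 bp, and the submitters' processing notes name STAR 2.5.2, featureCounts of Subread 1.6.3 and mm10. The authors deposited whole-number read counts for each gene, not normalized, and counting options and strandedness are not given in the sources used here. Samples were grouped by the labels. Totals of 15485959 to 32909565 counts limit the precision for genes of few counts.

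Each table was fitted with edgeR 4.0.16 in R 4.3.3 (filterByExpr, TMM factors, robust quasi-likelihood F test). The Wnt3-CM and D173A libraries share a table and were fitted apart. Members were called at a Benjamini-Hochberg adjusted p under 0.05 over all tested genes and a fold over 1.5. CPM values use TMM-scaled library sizes, and each standard error is the fitted log2 difference over the square root of its F value. A group at or under 3 counts per library gave a lower bound. Library values are given for members with the 2 highest mean CPM of a family in EtOH organoids, members called alike in at least 4 of 6 comparisons of 4-OHT with EtOH, and the largest called rise or fall of a family in CDK8iIEC-KO/Cdk19-/- organoids or IECs averaging at least 50 counts. Other members named were chosen after their values were seen. The members, the lists and the tests were chosen with earlier results of these data known.

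Alternatives were no filter, a filter of 10 counts in 3 libraries, RLE factors, DESeq2 1.42.0, a replicate block, only the groups compared, the average of both control lines, C57BL/6 as the control line (added after seeing the data), and each library left out. After removal of group means, same-numbered libraries had a lowest correlation under 0.1 in every comparison (-0.41 to 0.0443). The highest correlation per comparison was 0.0027 to 0.232. The libraries were treated as unpaired, which so few correlations per comparison cannot settle. Of the 57 libraries, 0 pairs within a group agreed within sampling noise (chi-square per degree of freedom of 2.634 to 90.18). Positions are from GENCODE vM21, with the same versioned identifier for 55 of 60 members, and promoters from RefSeq. In 1 table, 6 columns could not be tied to a group and were not used, and Sts, a listed gene, was not analysed here.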

Additional observations from a re-analysis of the deposited data

Results flagged for a closer look

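Flags come from tests of the difference between responses. Of 54 members tested, 43 differed between the day 10 and the day 3 response to 4-OHT, as log2 differences of day 10 minus day 3 that passed an edgeR adjusted p under 0.05 and a fold over 1.5. The Ugt members were Ugt1a1 (2.00), Ugt1a6a (1.54), Ugt1a7c (1.16), Ugt1a9 (1.82), Ugt2a3 (3.31), Ugt2b34 (1.14), Ugt2b35 (0.84), Ugt2b36 (2.55) and Ugt2b5 (4.21). The Gst members with such a difference were Gsta1 (2.20), Gsta2 (2.54), Gsta4 (0.87), Gstcd (-0.70), Gstk1 (1.30), Gstm1 (1.26), Gstm3 (1.68), Gstm4 (0.98), Gstm5 (-0.63), Gstm6 (0.67), Gstm7 (1.12), Gsto1 (1.34), Gstp1 (0.69), Gstp2 (0.69) and Gstt1 (0.77). All Mgst members differed, with Mgst1 (2.05), Mgst2 (1.97) and Mgst3 (1.82). Sulfotransferases that differed were Sult1b1 (2.11), Sult1c2 (0.75), Sult1d1 (1.81), Sult2b1 (1.18) and Sult6b2 (2.85). The Ces members were Ces1b (1.99), Ces1c (-0.86), Ces1d (2.86), Ces1e (2.39), Ces1f (2.08), Ces1g (1.75), Ces2a (2.73), Ces2c (1.17), Ces2e (1.91), Ces2g (1.71) and Ces2h (1.98). Of all genes, 13.9% had a positive and 12.4% a negative difference by the same thresholds. The calls of Ces1c and Gstm6 were lost when single libraries were left out. 

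The Wnt3-CM response differed from the day 10 response in standard medium for 11 members. It was higher for Ugt1a9 (1.58), Ugt2b36 (1.49), Ugt2b5 (1.63), Gsta2 (0.63), Sult6b2 (1.75), Ces1d (1.70), Ces1e (1.08), Ces1f (1.43), Ces2a (0.68) and Ces2b (1.25), and lower for Sult1b1 (-0.87). Of all genes, 7.11% were higher and 6.21% lower. The calls of Ugt1a9, Gsta2, Ces2a and Ces2b were lost when single libraries were left out. 

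The response of the D173A line differed from the day 7 response of the Cdk19 ko/ko line for 18 members. It was higher for Ugt1a9 (0.88), Ugt2b5 (1.80), Gsta2 (0.97), Gstm1 (2.36), Gstm3 (1.88), Gstm4 (1.39), Gstm5 (0.84), Gstm6 (0.62), Sult6b2 (1.44) and Ces1f (0.84). It was lower for Gsta4 (-0.79), Gstp2 (-2.67), Gstp3 (-1.32), Gstt1 (-0.72), Gstt2 (-0.64), Sult1b1 (-0.79), Sult1c2 (-0.63) and Sult1d1 (-1.01). Of all genes, 4.9% were higher and 6.25% lower. The calls of Ugt1a9, Gstm4, Gstm6, Gstt2, Sult1c2 and Ces1f were lost when single libraries were left out. The Wnt3-CM and D173A contrasts each join separate count tables, and the library with liver transcripts enters the D173A contrast. Groups of 3 libraries were not tested for single deviating samples.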

How the results depend on the processing

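The number of members called stayed within 1.5 times of the reported count, over no filter, a filter of 10 counts in 3 libraries, RLE factors, DESeq2, the block and only the groups compared, in all comparisons other than the IECs. Against the average of VillinCreERT2 and C57BL/6, the count for CDK8iIEC-KO/Cdk19-/- organoids went from 25 to 14 (12 higher and 2 lower), and Gstp2 turned from -0.64 to 0.030. Against C57BL/6 alone, a choice made after seeing the data, it went to 13 (11 higher and 2 lower), and 9 of the 25 changed sign: Gstp2 to 0.70 (called), and, not called, Ugt2b36 to 0.064, Sult2b1 to 0.15, Ces1b to -0.17, and Ugt2a3, Ces2g, Ces2h, Gstm2 and Gstp3 to -0.04, -0.02, -0.52, -0.04 and -0.10. In IECs, 4 members became 13 with no filter (6 higher and 7 lower) and 13 with DESeq2 (5 higher and 8 lower). With the replicate number as a block, 0 IEC members were called, with 23 at an unadjusted edgeR p under 0.05. The block left 11, 2, 25, 20 and 18 members called in the comparisons of lines, in the order reported, and 28, 14, 18 and 29 at days 3, 5, 7 and 10, and changed no other count by over 1.5 times. No paired analysis was possible for Wnt3-CM, the D173A line and the joint fits because no label ties their column numbers to numbered replicates. The cause of these changes was not tested.

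Leaving out 1 library gave 0 to 8 called members in IECs: 1 without CDK8iIEC-KO/Cdk19-/- replicate 1, 6 without replicate 2 and 0 without replicate 3 (29 at an unadjusted edgeR p under 0.05), and 0 without VillinCreERT2 replicate 1 (19 at an unadjusted p under 0.05), 8 without replicate 2 and 0 without replicate 3 (22 at an unadjusted p under 0.05). DESeq2 was not run on these subsets. In edgeR, leaving out 1 library gave 22 to 28 at day 3, 12 to 15 at day 5, 18 to 19 at day 7, 25 to 31 at day 10, 30 to 31 in Wnt3-CM, 17 to 24 in the D173A line and 24 to 26 for CDK8iIEC-KO/Cdk19-/- against VillinCreERT2 organoids. Of 2117 values recomputed for 164 results of members named by the rule, 2010 kept their direction and side of the thresholds, 102, in 38 results, kept their direction and were no longer called, and 5 reversed.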
